A study of Mus musculus with 4 samples.

Results

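Genes of 10 effector cytokines were followed in stimulated mouse B cells: Il6, Il2, Ifng, Il21, Il4, Il13, Csf2, Il1a, Il1b and Il16. They were taken by symbol from a deposited table of 23699 gene entries, in which each had 1 locus. RNA was sequenced from B10+ cells, the B cells that make the anti-inflammatory cytokine interleukin 10 (Il10), and from B10- cells, with 2 libraries per subset. B10+ cells were sorted from C57BL/6 spleen cultures as Cd1d high, Cd5 positive and Il10 positive B cells. B10- cells were B cells of the same cultures that were negative for Cd1d, Cd5 and Il10. All cells had 48 h with an antibody to Cd40; LPS, PMA and ionomycin were added in the final 5 h, so the B10- cells are stimulated cells too. Culture 1 gave replicate 1 of both subsets and culture 2 gave replicate 2 of both. A library is a bulk of sorted cells, so more cells that express a gene and more RNA per cell cannot be told apart.

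Cytokines are secreted proteins through which immune cells instruct each other, and activated B cells are a source of several of them. Their genes are mostly silent at rest. Stimuli such as LPS, which acts through Tlr4 and NF-kB, and PMA with ionomycin, which act through protein kinase C and calcium, switch them on through NF-kB, AP-1 and NFAT factors. Many of their mRNAs are short-lived, since AU-rich stretches in the 3′ UTR recruit decay factors. Il6 is a well-known B cell cytokine, whereas Ifng, Il2, Il4, Il13 and Il21 are best known from T cells.

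The values are the authors' FPKM, fragments scaled for transcript length and library size, so levels of different genes can be compared. The steps between low values placed the depth behind the scaling near 27900000 and 21800000 fragments for B10+ (cultures 1 and 2) and near 24200000 and 32500000 for B10-. B cell markers were present in every library, and all 8 on the list were above 2 FPKM in all 4 libraries. Cd5, used in the sort, was at 2.38 and 2.63 FPKM (B10+) against 0.278 and 0.563 FPKM (B10-). Il10 and Cd1d1, also used in the sort, had log2 differences of 7.57 and 0.75 (means of 2 cultures). Differences were tested with limma on log2(FPKM + 1) over 10367 entries that reached 1 FPKM in at least 2 libraries, with Benjamini-Hochberg adjustment and a threshold of 0.05. The fit was run without the culture and then with it as a block. With 2 cultures the block leaves 1 residual degree of freedom, so its p-values rest mostly on the spread over all genes.

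Motifs of these factors were looked for just upstream of the cytokine genes. The 250 bases before the RefSeq start (GRCm38.p6) are shown for the members with the highest level (Il6 and Il2), for those called with the block (Ifng and Il21) and for Il1b, whose groups lay the other way round. They lie on the plus strand at chr5:30012864-30013113 for Il6 and chr10:118440796-118441045 for Ifng, and on the minus strand at chr3:37232637-37232886 for Il21, chr3:37125955-37126204 for Il2 and chr2:129371140-129371389 for Il1b. Capitals mark GGAAA (the NFAT core) on either strand, TGANTCA (AP-1) on either strand, the NF-kB motif (GGGA, any base, TTTCC; its end holds an NFAT core) on either strand, and TATAAA on the sense strand.
Il6: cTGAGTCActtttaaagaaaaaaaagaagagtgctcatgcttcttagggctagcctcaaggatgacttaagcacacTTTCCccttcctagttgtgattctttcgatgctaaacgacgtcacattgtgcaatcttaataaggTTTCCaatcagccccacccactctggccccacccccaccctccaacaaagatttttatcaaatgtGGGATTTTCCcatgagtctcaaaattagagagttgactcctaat
Il2: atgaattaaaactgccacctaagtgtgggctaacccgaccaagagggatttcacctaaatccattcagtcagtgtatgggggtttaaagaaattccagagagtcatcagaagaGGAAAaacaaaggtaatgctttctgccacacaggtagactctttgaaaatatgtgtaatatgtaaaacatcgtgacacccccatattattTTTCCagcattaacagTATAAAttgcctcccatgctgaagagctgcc
Ifng: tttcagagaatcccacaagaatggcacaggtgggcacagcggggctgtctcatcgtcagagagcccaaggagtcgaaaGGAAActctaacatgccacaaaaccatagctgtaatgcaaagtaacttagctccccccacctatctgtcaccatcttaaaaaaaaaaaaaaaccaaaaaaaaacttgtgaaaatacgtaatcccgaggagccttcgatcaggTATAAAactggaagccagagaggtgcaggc
Il21: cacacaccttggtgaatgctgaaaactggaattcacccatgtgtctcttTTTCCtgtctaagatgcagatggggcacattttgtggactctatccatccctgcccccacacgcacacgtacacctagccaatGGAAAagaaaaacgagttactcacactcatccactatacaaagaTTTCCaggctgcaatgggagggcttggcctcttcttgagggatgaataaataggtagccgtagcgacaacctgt
Il1b: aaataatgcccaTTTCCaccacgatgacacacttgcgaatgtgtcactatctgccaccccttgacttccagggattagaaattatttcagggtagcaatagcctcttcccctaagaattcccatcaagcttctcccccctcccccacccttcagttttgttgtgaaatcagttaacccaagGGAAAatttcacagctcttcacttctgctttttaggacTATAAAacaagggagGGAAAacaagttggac

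The NFAT core was found upstream of all 10 members in at least 1 of their 13 start windows, against 55.6% of 32851 promoter windows of the same length. Il6, Il21 and Il1b held 3 copies each, Il13 held 4, 1 of the 2 start windows of Il4 held 5 and 1 of the 3 of Il16 held 3, and 6.39% of all windows held 3 or more. Il6 was the member with an NF-kB match at its only start, 44 bases upstream, and 0.356% of all windows held one. Another NF-kB match lay at 1 of 3 start windows of Il16. AP-1 matched in windows of 3 members (Il6, Il1a and Il16), against 6.75% of all windows. TATAAA stood 29 to 32 bases upstream in 5 members (Ifng, Il2, Il13, Il1a and Il1b), against 7.59% of all windows with a copy anywhere. A match is a run of letters and was not tested as a binding site.

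Between the subsets, 6 of the 10 genes had both B10+ libraries above both B10- libraries: Il6, Il2, Ifng, Il21, Il4 and Il13. Among all 19935 entries with a value above 0, 11.1% lay so and 6.06% lay the other way; among tested entries these shares were 6.6% and 7.47%. Il1b had both B10+ libraries below both B10- libraries, and the groups of Csf2, Il1a and Il16 overlapped. Within cultures, 7 genes were higher in B10+ cells in both, 2 were lower in both (Il1a and Il1b) and Il16 was higher in culture 1 and lower in culture 2. Of all entries above 0, 28.5% were higher and 21.7% lower in both cultures. The median log2 difference was 0.56 over the 10 genes and 1.16 over the 8 that were tested, against 0.0028 over all tested entries. Of the tested genes, Ifng and Il21 passed the filter only through their B10+ libraries. The members were chosen with results of these data known, so these counts describe them and carry no test.

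**Figure D1:**
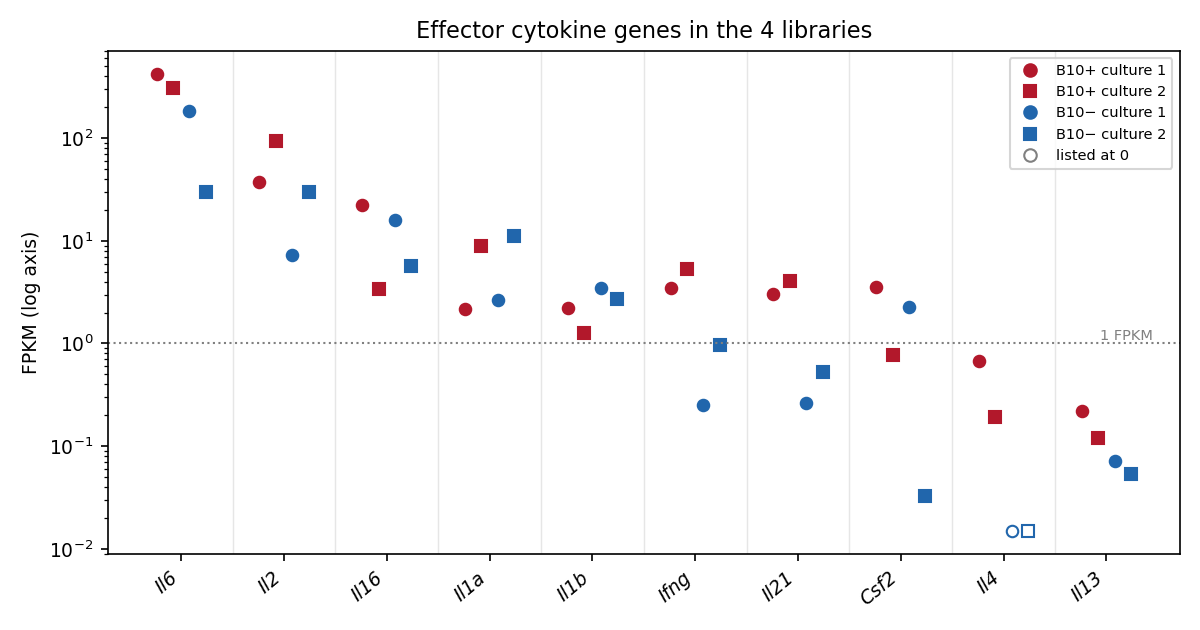
FPKM of the 10 cytokine genes on a log axis, with B10+ libraries in red left of B10- libraries in blue, circles for culture 1 and squares for culture 2; open symbols are listed at 0 and the dotted line is 1 FPKM. Il6 spans 29.7 to 426 FPKM, while Il13 is at most 0.220 FPKM in every library.

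Of the 10 genes, 8 could be tested, and Il4 and Il13 could not because they did not reach 1 FPKM in any library. Ifng and Il21 passed this filter only through their B10+ libraries. With the culture block, limma called Ifng and Il21 higher in B10+ cells and called no member lower, against 0.781% of all tested entries called higher and 0.0772% called lower. Without the block it called 0 of the 8 and 0 of all 10367 entries, with 2 of the 8 and 118 of 10367 entries (1.14%) at an unadjusted p under 0.05. At an unadjusted p under 0.05 in the blocked limma fit stood 5 members that were higher (Il6, Il2, Ifng, Il21 and Csf2) and 1 that was lower (Il1b), against 10.5% and 4.66% of all tested entries. An exact permutation test on 2 against 2 libraries cannot give a two-sided p below 0.33.

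Il6, which supports plasma cells and the differentiation of helper T cells, was the most abundant of the 10 genes. Its B10+ libraries held 426 and 309 FPKM (cultures 1 and 2) and its B10- libraries 186 and 29.7 FPKM. Both B10+ libraries lay above both B10- libraries, and the lowest value by far was B10- of culture 2. Il6 stood at the 98.7 percentile of entries above 0 in each B10+ library, against the 96.5 and 80.8 percentiles in B10- cells. The fold between the subsets was 2.29 in culture 1 and 10.4 in culture 2. The log2 difference was 2.26 ± 1.51 (SD, n = 2 cultures) and did not pass (blocked limma, adjusted p = 0.198). With 1 added to each FPKM it was the largest of the 10 and had the widest spread over cultures. With 0.1 added instead it was 2.29, below Ifng (2.85) and Il21 (2.92). Without B10- replicate 2 the log2 difference of Il6 was 0.96, and without B10- replicate 1 it was 3.57. Il6 lies on chromosome 5 (30339701 to 30346508, mm9).

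Il2, the growth factor of activated T cells, lies on chromosome 3 (37019642 to 37024876, mm9) and was second in level in both B10+ libraries. Its level was 37.5 and 93.0 FPKM (B10+; cultures 1 and 2) against 7.22 and 29.6 FPKM (B10-). Every B10+ value was above every B10- value, and within each subset culture 2 was higher. The fold between the subsets was 5.20 and 3.14 in the 2 cultures. Its log2 difference, 1.92 ± 0.43 (SD, n = 2 cultures), narrowly missed the threshold in the blocked limma fit (adjusted p = 0.0502; 1 without the block). In the blocked limma fit Il2 passed after median-of-ratios scaling (adjusted p = 0.0364) and quantile normalization (0.0128). It missed the threshold with a pseudocount of 0.1 (0.0676) or 0.5 (0.0564), with no filter (0.0684) and with a filter of at least 5 FPKM (0.0514). Without B10- replicate 1 its log2 difference was 0.98, and without B10+ replicate 2 it was 1.28.

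Il21, whose product shares the common gamma chain with the Il2 receptor and drives B cells to become plasma cells, is the neighbour of Il2 on chromosome 3 (37121681 to 37131540, mm9). The 2 genes are 96.8 kb apart. Entries whose symbol starts with a digit were left out of the search for neighbours, and no other entry of the table lies between them. Il21 was at 3.01 and 4.02 FPKM (B10+) against 0.261 and 0.525 FPKM (B10-; cultures 1 and 2). The B10+ libraries were close to each other and both were far above the B10- libraries. The folds were 11.6 and 7.65, and the log2 difference was 1.69 ± 0.03 (SD, n = 2 cultures; blocked limma, adjusted p = 0.0395, and 1 unblocked). The B10- values stood for about 3.34 to 19.4 fragments in culture 1 and 9.02 to 52.4 in culture 2, depending on which of 2 coding transcripts sets the length.

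Ifng, the macrophage-activating interferon of type 1 immunity, was at 3.51 and 5.36 FPKM (B10+) against 0.253 and 0.972 FPKM (B10-; cultures 1 and 2). All B10- values were under 1 FPKM and all B10+ values above 3 FPKM. About 118 and 141 fragments stood behind the B10+ values of Ifng, against about 7 and 38 behind the B10- values. The folds were 13.9 and 5.52 and the log2 difference was 1.77 ± 0.11 (SD, n = 2 cultures; blocked limma, adjusted p = 0.0395, and 1 unblocked). Ifng lies on chromosome 10 (117878103 to 117882948, mm9).

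The blocked calls of Ifng and Il21 were lost with a pseudocount of 0.1 (adjusted p = 0.0791 and 0.0528) and when entries of any level were tested (0.0819 and 0.0749). With that pseudocount their log2 differences were 2.85 and 2.92.

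Beside these genes, markers of T cells were higher in B10+ cells as well. In both cultures 15 of the 17 listed markers were higher in B10+ cells and 0 were lower, against 28.5% and 21.7% of all entries above 0. The summed level of the T cell markers was 40.8 and 31.4 FPKM (B10+) against 19.3 and 9.50 FPKM (B10-). The list holds Cd2 and Cd5, which B cells can also express, and Cd5 was part of the sort. Cd2 alone gave 20.3 and 10.3 FPKM of the B10+ sums and 5.24 and 2.93 FPKM of the B10- sums. Lck gave 7.93 and 6.57 FPKM of the B10+ sums and 10.1 and 3.42 FPKM of the B10- sums, so it was lower in B10+ cells in culture 1. Cd3e, Cd3g, Cd4, Cd8b1 and Trat1 were listed at 0 in both B10- libraries. In the B10+ libraries of cultures 1 and 2, Cd3e was at 0.0257 and 0.298 FPKM, Cd3g at 1.14 and 0.245 FPKM, and Cd8b1 at 0.863 and 3.23 FPKM. For Cd3e that is about 1 and 9 fragments, and Cd4, at 0.168 and 0.101 FPKM, had about 15 and 7. The T cell marker Cd3d was at 0.253 and 0.253 FPKM (B10+) against 0.130 and 0.193 FPKM (B10-). Cd8a was higher in B10+ cells in culture 1 only, at 0.0672 and 0 FPKM (B10+) against 0.0258 and 0.0385 FPKM (B10-). Of 10 NK cell markers, 4 were higher in B10+ cells in both cultures and 1 (Prf1) was lower. Only Ncr1 and Klre1 were listed at 0 in all 4 libraries. Nkg7 was at 0.1002 and 0.582 FPKM (B10+) and listed at 0 in both B10- libraries. Klrb1c was at 0.0401 FPKM (B10+) against 0.0154 FPKM (B10-) in culture 1, and listed at 0 in both libraries of culture 2. The summed level of the NK cell markers was 2.30 and 3.20 FPKM (B10+) against 0.890 and 0.398 FPKM (B10-). Gzmb gave 1.62 and 2.29 FPKM of the B10+ sums and 0.121 and 0.113 FPKM of the B10- sums. The part of T or NK cell RNA in the values of Ifng, Il21, Il2 and Il4 was not tested.

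**Figure D2:**
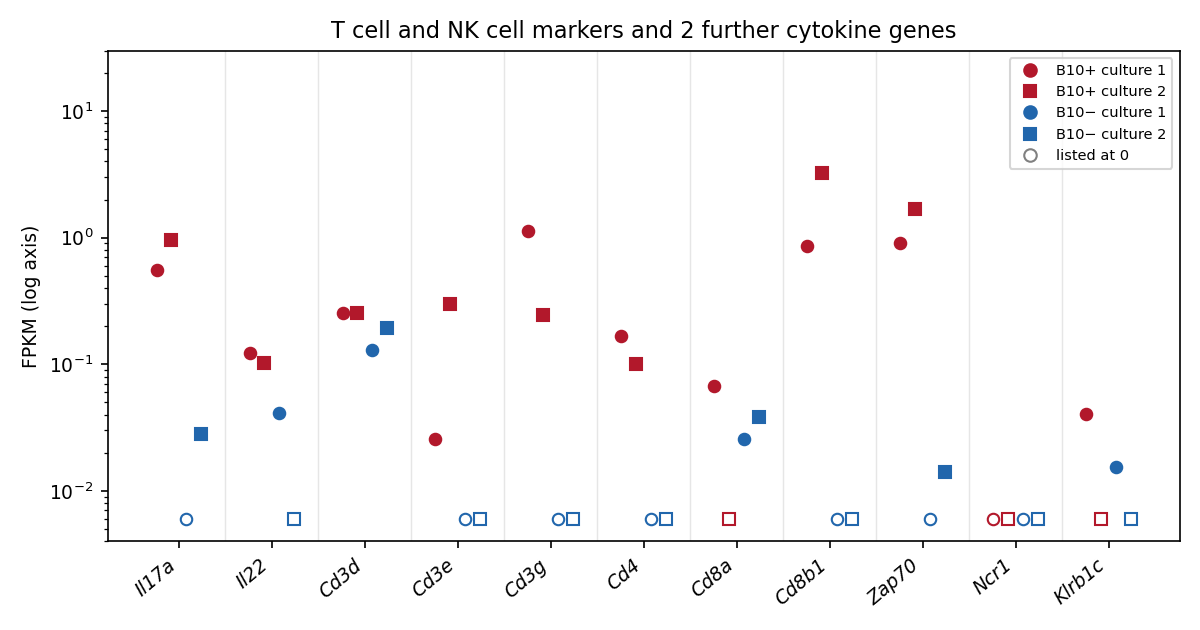
FPKM on a log axis of 9 markers of T and NK cells and of the cytokine genes Il17a and Il22, drawn as in the plot of the 10 genes; open symbols are listed at 0. Cd3e, Cd3g, Cd4 and Cd8b1 have values in both B10+ libraries and are listed at 0 in both B10- libraries, and Ncr1 is listed at 0 in all. Cd8a has values in both B10- libraries and in B10+ of culture 1, and is listed at 0 in B10+ of culture 2.

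Il4 and Il13, paralogues that signal through the shared chain Il4ra and drive type 2 immunity, had the lowest levels of the 10 genes in both B10+ libraries. Il4 (chromosome 11, 53425963 to 53432167, mm9) was at 0.672 and 0.194 FPKM in B10+ cells and listed at 0 in both B10- libraries. These values stand for about 9.94 to 11.4 and 2.24 to 2.56 fragments. Il13, 12.7 kb from Il4 on chromosome 11 (53444825 to 53448204, mm9), was at 0.220 and 0.121 FPKM (B10+) against 0.0725 and 0.0540 FPKM (B10-), or about 7 and 3 fragments against 2 and 2. The groups did not overlap for either gene, but the Il13 libraries of culture 2 differ by about 1 fragment. With no filter on low values their limma adjusted p was 0.268 and 0.384 with the block.

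Csf2 encodes Gm-csf, a growth factor of myeloid cells, and varied more between cultures than between subsets. It was at 3.53 and 0.775 FPKM (B10+) against 2.26 and 0.0324 FPKM (B10-; cultures 1 and 2). B10+ was higher within each culture, but B10+ of culture 2 lay below B10- of culture 1. The last value, B10- of culture 2, corresponds to about 1 fragment, so the fold of 23.9 in that culture is poorly fixed, while culture 1 gave 1.56. The log2 difference was 0.63 ± 0.22 (SD, n = 2 cultures; blocked limma, adjusted p = 0.227). Csf2 lies on chromosome 11 (54060772 to 54063401, mm9).

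Il1a and Il1b, the agonists of the Il1 receptor that start inflammatory responses, were the 2 genes lower in B10+ cells in both cultures. They lie 54.6 kb apart on chromosome 2, at 129125346 to 129135708 (Il1a) and 129190316 to 129196856 (Il1b; mm9). Il1b was at 2.22 and 1.27 FPKM (B10+) against 3.51 and 2.74 FPKM (B10-). The groups did not overlap, and the fold of B10- over B10+ was 1.58 and 2.16. The log2 difference of Il1b was -0.60 ± 0.17 (SD, n = 2 cultures; blocked limma, adjusted p = 0.246). Il1a was at 2.19 and 8.86 FPKM (B10+) against 2.65 and 11.3 FPKM (B10-). Its values followed the culture, being 4.04 times as high in culture 2 as in culture 1 for B10+ and 4.25 times for B10- cells. Its log2 difference between subsets was -0.25 ± 0.08 (SD, n = 2 cultures; blocked limma, adjusted p = 0.519). The entries Gm14023 and Gm14047 overlap Il1a and Il1b on chromosome 2, and since the handling of strand is not given in the sources used here, reads of overlapping genes cannot be told apart. Gm14023 was at 0.0631 and 0.765 FPKM (B10+) against 0.1004 and 0.854 FPKM (B10-), and Gm14047 at 0.0266 and 0.239 (B10+) against 0.123 and 0 FPKM (B10-).

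Il16, a chemoattractant for Cd4-bearing cells that is made as a long precursor, differed from the others in having no common direction. It was at 22.1 and 3.37 FPKM (B10+) against 16.1 and 5.63 FPKM (B10-; cultures 1 and 2). Culture 1 was higher in both subsets, by 6.57 times in B10+ and 2.85 times in B10- cells. Il16 lies on chromosome 7 (90791573 to 90884000, mm9). Its log2 difference came to 0.44 for culture 1 and -0.60 for culture 2, with a mean of -0.08 ± 0.74 (SD, n = 2 cultures; blocked limma, adjusted p = 0.914).

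**Figure D3:**
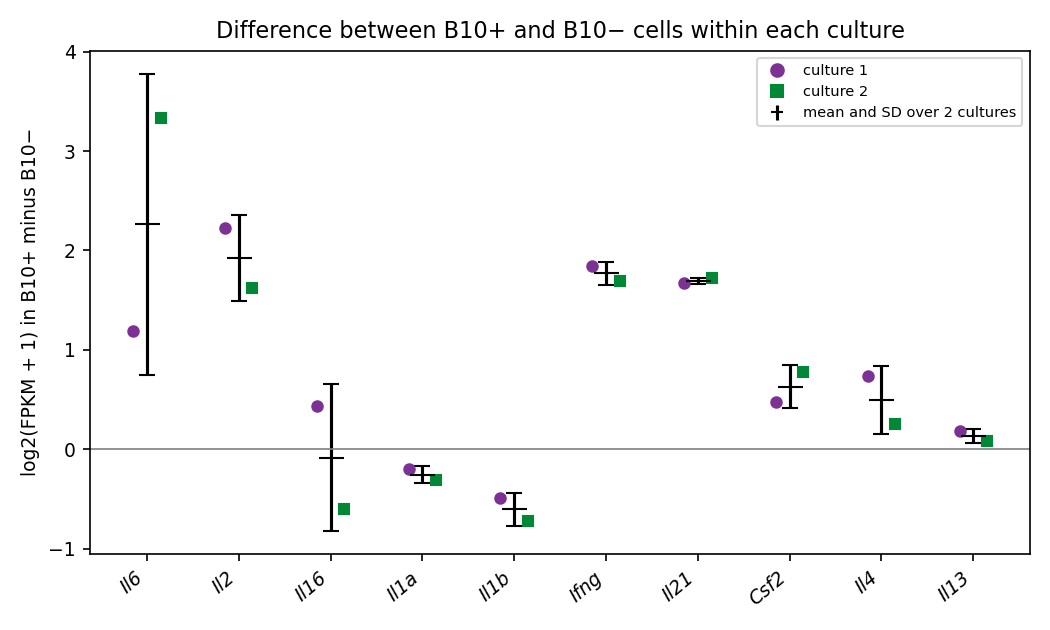
Difference of log2(FPKM + 1), B10+ minus B10-, in culture 1 (circles) and culture 2 (squares), with the mean and SD over the 2 cultures. Ifng and Il21 lie near 1.77 and 1.69 with little spread on this scale, where 1 is added to B10- values under 1 FPKM. The FPKM folds of cultures 1 and 2 were 13.9 and 5.52 for Ifng and 11.6 and 7.65 for Il21. Il6 ranges from 1.19 to 3.34, and Il16 falls on both sides of 0.

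In order of level, Il6 and Il2 led in both B10+ libraries and in B10- of culture 2, whereas Il16 stood above Il2 in B10- of culture 1. Il4 and Il13 came last in every library but B10- of culture 2, where Csf2 lay between them. The middle of the order was not fixed. Mean levels in B10+ cells were 12.7 ± 13.3 FPKM for Il16, 5.53 ± 4.72 for Il1a, 4.44 ± 1.31 for Ifng, 3.52 ± 0.711 for Il21, 2.15 ± 1.95 for Csf2 and 1.74 ± 0.676 FPKM for Il1b (SD, n = 2 libraries), and each neighbour in this order differed by less than the larger of the 2 SDs.

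**Figure D4:**
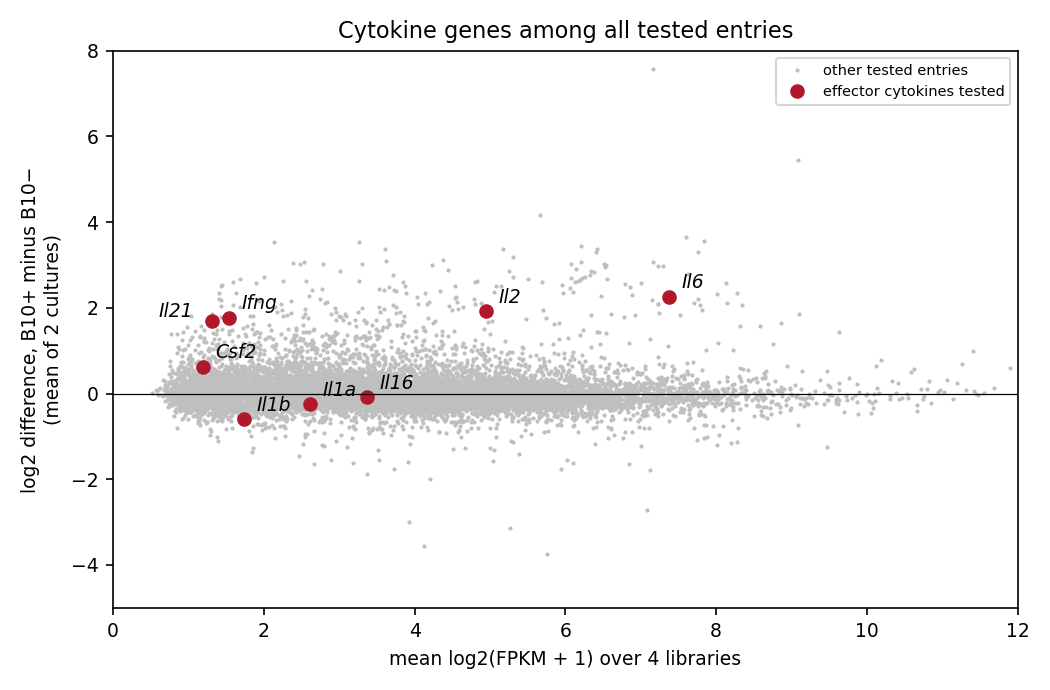
Mean log2(FPKM + 1) over the 4 libraries against the log2 difference, B10+ minus B10- (mean of 2 cultures), for all tested entries in grey and the 8 tested cytokine genes in red; 29 entries lie outside the axes. Il6, Il2, Ifng and Il21 have differences between 1.69 and 2.26, and Il1b has -0.60.

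Profiles closest to each tested gene over the 4 libraries were found by Euclidean distance between centred log2(FPKM + 1) values, as a description over 4 libraries. Symbols of the Gm, Rik, Mir, Snor, Scarna, Olfr and Vmn types, clone and LOC symbols and those starting with a digit were left out. Closest here means closest among the remaining tested entries. Ifng was closest to Il21 (distance 0.304), then to the TNF-family genes Tnfrsf8 (0.325) and Tnfsf14 (0.427). Il21 was closest to Bcl2l15, Rbm47 and Rgs13, at 0.207, 0.221 and 0.290. Il2 was closest to Ptpn22, a phosphatase that restrains antigen receptor signals (0.412), and to Prdm1, the plasma cell factor Blimp-1 (0.493). Il6 was closest to Cd36 (0.189), then to the costimulatory ligand Cd80 (0.403). The closest entries to Il1a, Il1b, Csf2 and Il16 were Bcap29, Unc93b1, Cstb and Atp5h, at 0.0191, 0.0555, 0.0358 and 0.0637.

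Receptors of these cytokines were measured on the same cells. Of 20 receptor and antagonist genes, 16 could be tested. With the block 2 of the 16 rose in B10+ cells and 0 fell, against 0.781% and 0.0772% of all tested entries, and without it 0 were called. The median log2 difference was -0.14 over the 16, against 0.0028 over all tested entries. Il2rb, the signalling chain of the Il2 and Il15 receptors, was at 22.0 and 7.95 FPKM (B10+) against 3.76 and 1.05 FPKM (B10-; cultures 1 and 2). Both B10+ values were above both B10- values, and the log2 difference was 2.20 ± 0.11 (SD, n = 2 cultures; blocked limma, adjusted p = 0.0307). The call of Il2rb was lost when entries of any level were tested (adjusted p = 0.0628). Csf2rb, the signalling chain for Gm-csf, was at 21.6 and 9.06 FPKM (B10+) against 1.68 and 0.240 FPKM (B10-), with no overlap and a log2 difference of 3.05 ± 0.04 (SD, n = 2 cultures; blocked limma, adjusted p = 0.026, and 0.0338 with entries of any level). Its partner Csf2ra was at 3.48 and 6.40 FPKM in B10+ cells and 1.68 and 3.42 FPKM in B10- cells, and the groups did not overlap (blocked limma, adjusted p = 0.181). Of the other Il2 receptor chains, Il2ra, the high-affinity chain, was at 31.3 and 228 FPKM (B10+) against 36.2 and 300.0 FPKM (B10-), and Il2rg, the common gamma chain, at 42.4 and 99.1 (B10+) against 82.9 and 79.2 FPKM (B10-). Il21r was at 26.8 and 16.1 FPKM (B10+) against 36.4 and 18.6 FPKM (B10-), and Il4ra at 20.8 and 16.5 (B10+) against 29.5 and 20.8 FPKM (B10-). The Ifng receptor chain Ifngr2 stood at 31.4 and 33.4 FPKM (B10+) against 35.1 and 37.3 FPKM (B10-), and Ifngr1 at 17.5 and 9.91 (B10+) against 27.1 and 9.77 FPKM (B10-). The Il6 receptor chain Il6ra was low at 0.621 and 1.15 FPKM (B10+) against 0.191 and 0.908 FPKM (B10-), while its shared signalling chain Il6st was at 7.18 and 18.6 (B10+) against 8.78 and 20.6 FPKM (B10-). Il1rn, the natural antagonist of Il1a and Il1b, was at 5.61 and 22.9 FPKM (B10+) against 1.59 and 15.9 FPKM (B10-), a log2 difference of 0.92 ± 0.61 (SD, n = 2 cultures; blocked limma, adjusted p = 0.256). Il1r1 was at 0.695 and 1.79 FPKM (B10+) against 0.269 and 1.07 FPKM (B10-), and Il13ra2 was listed at 0 in all 4 libraries. The remaining chains Il1r2, Il1rap and Il13ra1 had log2 differences of 0.11 ± 0.91, -0.28 ± 0.45 and -0.13 ± 0.33 (SD, n = 2 cultures) with overlapping groups, and Csf2rb2 stayed under 1 FPKM, at 0.662 and 0.938 FPKM (B10+) against 0.106 and 0.0826 FPKM (B10-). Cd9, a tetraspanin reported as a receptor for Il16, was at 18.4 and 65.1 FPKM in B10+ and 4.003 and 2.57 FPKM in B10- libraries, and its groups did not overlap (blocked limma, adjusted p = 0.128).

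Of 22 other cytokine genes, 12 could be tested and 0 were called in either direction with or without the block. Their median log2 difference was 0.14, with 6 higher and 2 lower in B10+ cells in both cultures, against 33.4% and 31.8% of all tested entries. The smallest p-values were those of Lif and Il33, at 2.74 and 10.3 FPKM (B10+) against 1.34 and 5.33 FPKM (B10-) for Lif, and 1.68 and 25.6 (B10+) against 0.448 and 5.16 FPKM (B10-) for Il33 (blocked limma, adjusted p = 0.186 and 0.188). Ifnb1 and Il15 followed, with log2 differences of 1.40 ± 1.17 and 0.62 ± 0.46 (SD, n = 2 cultures). Tnf, a major inflammatory cytokine of B cells, lay the other way at 32.3 and 53.3 FPKM (B10+) against 55.5 and 56.9 FPKM (B10-). Il17a was under 1 FPKM in every library and not tested, with 0.552 and 0.961 FPKM in B10+ cells, or about 18 and 24 fragments, against 0 and 0.0280 FPKM in B10- cells, or about 0 and 1. Il5, of the same cluster as Il4 and Il13, was at 0.143 and 0.0922 FPKM (B10+) against 0.0276 and 0.144 FPKM (B10-).

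Il1b and Il16 are made as precursors that are cut. Of 14 genes listed for this processing and for release, 12 could be tested and 0 were called with or without the block. The list includes the antagonist Il1rn, also counted with the receptors and higher in B10+ cells in both cultures. In both cultures 8 of the 12 were higher and 2 lower in B10+ cells, against 33.4% and 31.8% of all tested entries. The median log2 difference of the 12 was 0.37. Casp1, which cuts the Il1b precursor, was at 30.9 and 14.05 FPKM (B10+) against 26.7 and 11.02 FPKM (B10-), and Nlrp3, the sensor that activates it in macrophages, was at most 0.0683 FPKM. Capn2, a calpain, had the smallest p-value, at 19.3 and 2.93 FPKM (B10+) against 3.61 and 0.393 FPKM (B10-) (blocked limma, adjusted p = 0.0659). The anti-apoptotic gene Hax1 and the gene of the pore through which Il1b leaves cells, Gsdmd, had log2 differences of -0.46 ± 0.23 and -0.46 ± 0.09 (SD, n = 2 cultures; blocked limma, adjusted p = 0.294 and 0.301).

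Transcription factors that act on these cytokine genes were not called with or without the block. Of 26 factors 20 could be tested, with a median log2 difference of -0.07. In both cultures 3 of the 20 were higher and 6 lower in B10+ cells, against 33.4% and 31.8% of all tested entries. Tbx21 (T-bet), which drives Ifng in T cells, was at 3.97 and 8.67 FPKM (B10+) against 9.95 and 12.3 FPKM (B10-). These groups did not overlap, and T-bet lay in the other direction from Ifng (blocked limma, adjusted p = 0.258). Eomes, a further factor for Ifng, and Gata3, the factor for Il4 and Il13 in T cells, were at most 0.0970 FPKM in all 4 libraries. Maf, which acts on Il4 and Il21 in T cells, was at 0.0757 and 0.194 FPKM (B10+) against 0.0545 and 0.179 FPKM (B10-). The factors with the smallest p-values were Ikzf3, Runx1 and Cebpb. Ikzf3 (Aiolos) was at 11.7 and 14.1 FPKM (B10+) against 5.77 and 7.05 FPKM (B10-), with a log2 difference of 0.91 ± 0.0026 (SD, n = 2 cultures; blocked limma, adjusted p = 0.126). Runx1 and Cebpb had log2 differences of -0.83 ± 0.08 and -0.82 ± 0.34 (SD, n = 2 cultures; blocked limma, adjusted p = 0.137 and 0.203). Batf and Irf4, which work together on Il21 and Il10, were abundant in both subsets, at 661 and 387 FPKM for Batf (B10+) against 693 and 522 FPKM (B10-), and 434 and 565 (B10+) against 383 and 543 FPKM (B10-) for Irf4.

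All of these cytokine mRNAs but that of Il16 hold AU-rich pentamers, a feature the choice of genes did not use. The pentamer ATTTA was counted on the sense strand in the longest annotated 3′ UTR of each gene (GENCODE vM21, GRCm38). Its density was above the median of 19925 genes (1.35 per kb) in 9 of 10 members, and above their 90th percentile (4.45) in Csf2, Il4, Il2, Ifng, Il1b and Il6. Csf2 had 28.4 per kb, Il4 19.2 and Il2 12, while Il16 had 0 in 1064 bases. The value of Il4 rests on 2 copies in 104 bases. At least 1 copy was held by 13614 of the 19925 genes. The nonamer TTATTTATT was present in Il21, Il2, Il13 and Csf2, against 8.06% of all genes with a UTR of at least 100 bases. The 30 bases richest in the pentamer, in capitals, are shown for Csf2 (chr11:54247329-54247358, minus strand), Il2 (chr3:37121040-37121069, minus), Ifng (chr10:118445330-118445359, plus) and Il1b (chr2:129364808-129364837, minus), since these are the densest of the members that reached 1 FPKM and they differ in direction between the subsets.
Csf2: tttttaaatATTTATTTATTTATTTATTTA
Il2: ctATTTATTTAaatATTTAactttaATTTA
Ifng: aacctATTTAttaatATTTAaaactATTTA
Il1b: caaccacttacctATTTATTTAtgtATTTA

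**Figure D5:**
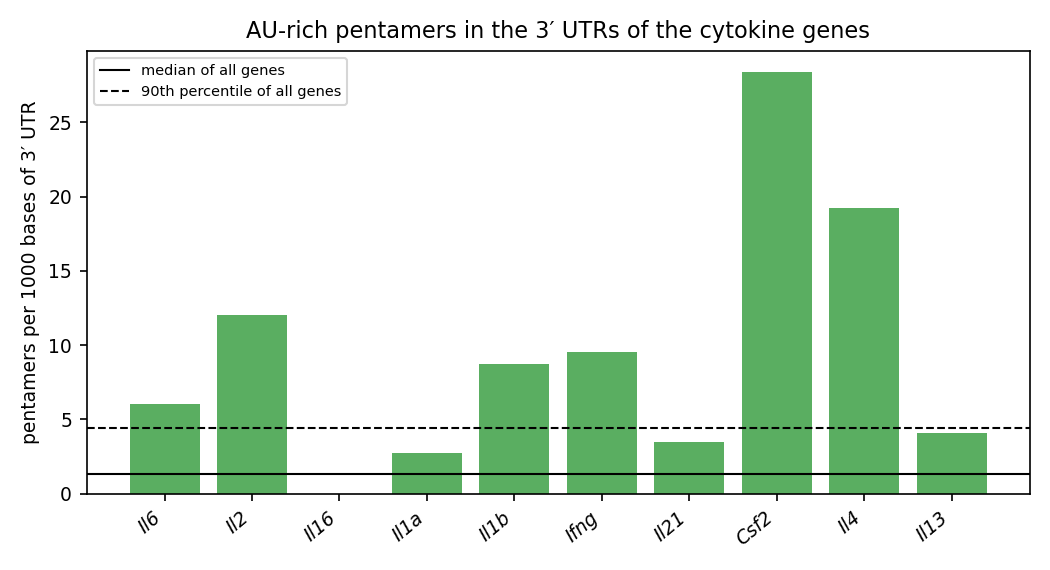
Copies of the AU-rich pentamer per kb of the longest annotated 3′ UTR of each cytokine gene, as bars, with the median (1.35) and 90th percentile (4.45) of 19925 genes as lines. Csf2 is highest at 28.4 and Il16 has 0.

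Proteins that bind such mRNAs were expressed in both subsets. Of 19 listed genes 18 are in the table and all 18 could be tested, 0 were called, and the median log2 difference was -0.04. In both cultures 4 of the 18 were higher and 6 lower in B10+ cells, against 33.4% and 31.8% of all tested entries. Mapkapk2, the kinase (Mk2) that stabilizes AU-rich mRNAs downstream of p38, had the smallest p-value, at 199 and 148 FPKM (B10+) against 116 and 48.2 FPKM (B10-). Both B10+ values were above both B10- values, and the log2 difference was 1.19 ± 0.58 (SD, n = 2 cultures; blocked limma, adjusted p = 0.144). Zfp36 (tristetraprolin), which speeds the decay of AU-rich mRNAs, was at 14.4 and 52.0 FPKM (B10+) against 27.4 and 42.2 FPKM (B10-). Zc3h12a (Regnase-1), which cuts Il6 and Il2 mRNAs, was at 3.17 and 24.3 FPKM (B10+) against 4.95 and 25.8 FPKM (B10-). Zc3h12c and Zfp36l2 had log2 differences of 0.48 and 0.47.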

How the data were processed

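Total RNA depleted of ribosomal RNA was sequenced from 4 libraries, per the labels. The authors deposited FPKM values with 1 column per library. Per the submitters' processing notes, which state no roles, the tools were bcl2fastq 1.8.4, TopHat 1.3.2, Cufflinks 2.1.1 and an unversioned DESeq, on mm9. How strand was handled, and which annotation was used, is not given in the sources used here. Loci in the table are on mm9 and are printed with 1 added to the start.

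Ratios of low FPKM values (under 0.15) between B10+ replicate 1 and each other library had a most frequent value, as whole fragments can give. On this main ratio lay 422 of 2508 pairs for B10- replicate 1, 270 of 1937 for B10+ replicate 2 and 224 of 1840 for B10- replicate 2. The main ratio set the relative depth (1 and 0.779 for B10+, 0.867 and 1.16 for B10-, replicates 1 and 2), and genes with 1 coding transcript set the scale. Fragment numbers derived this way are estimates and carry no interval.

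Tests used limma 3.58.1 in R 4.3.3 (limma-trend, two-sided, pseudocount 1), fitted over 10367 of 23699 entries and tested on simulated data. The primary fit left the culture out, and an alternative added it as a replicate block. The labels pair the libraries by culture: deviations from the group means correlated at 0.865 within a culture. Replicates are separate cultures. Alternatives were pseudocounts of 0.1 and 0.5, other filters, 2 scalings and leaving out each library. The members, lists and naming rule (all members; from each list the called genes and the 4 with the smallest blocked p, plus receptor chains) were chosen with earlier results of these data known. Genes outside that rule (Tnf, Il17a, Il5, Casp1, Gsdmd, Nlrp3, Eomes, Gata3, Maf, Batf, Irf4, Zfp36 and Zc3h12a) were named after their values were seen. Promoter sequences are from RefSeq (GRCm38.p6), matched by symbol for all 10 members, and were not joined to mm9 coordinates. Some genes that the naming rule covers are not reported here.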

Additional observations from a re-analysis of the deposited data

How the results depend on the processing

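Without the culture, limma called 0 members under every pseudocount, filter and scaling tried. With 1 library left out, Ifng and Il21 were not tested without a B10+ library, nor Csf2 without a replicate 1 library. The count of all entries called lower was 1 with a pseudocount of 0.1 and 1 after median-of-ratios scaling. With the replicate block, 2 members, 81 entries and 2 list genes were called higher and 8 entries lower. The block combined with a pseudocount of 0.1 gave 53 entries higher, 7 lower and 2 list genes higher, with 0 members. With 0.5 it gave 2 members, 77 entries and 3 list genes higher, and 8 entries lower. With no filter it gave 40 higher, 5 lower and 1 list gene (Csf2rb, not Il2rb), with 0 members, and with at least 5 FPKM in 2 libraries 62 higher, 9 lower and 2 list genes, with Ifng and Il21 no longer tested. Median-of-ratios scaling with the block gave 3 members, 124 entries and 3 list genes higher, and 14 entries lower. Quantile normalization with the block gave 3 members, 167 entries and 3 list genes higher, and 23 entries lower. The cause of these changes was not tested, except that the filters change which genes are tested. Leaving out 1 library, without the block, gave between 1 and 97 entries higher, between 2 and 5 lower and between 0 and 1 list genes higher. In such fits 1 group holds a single library, which is assumed to vary like the others, and the culture difference enters by construction. The log2 difference of Il1a then ranged from -1.13 to 0.62 and that of Il16 from -1.28 to 1.12. Csf2 had a value only with a replicate 2 library left out, at 1.3 without the B10+ and -0.20 without the B10- library. The differences of Il6 (0.96 to 3.57), Il2 (0.98 to 2.87) and Il1b (-0.86 to -0.35) kept their sign. The sign turned for Il1a without B10+ replicate 1 (0.56) or B10- replicate 2 (0.62), for Il16 without B10- replicate 1 (0.60) or B10+ replicate 2 (1.12), and for Csf2 without B10- replicate 2 (-0.20). Leaving out a library from the blocked fit leaves no residual degree of freedom and gave no test. Each member has 1 locus, so summing loci changes nothing.

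Few fragments stood behind Il4, Il13 and Csf2 in B10- cells of culture 2, at about 0, 2 and 1. That library had the greatest estimated depth. Il4 and Il13 also rested on about 3 fragments or fewer in B10- cells of culture 1 and B10+ cells of culture 2.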

Other observations

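Genes next to the cytokine loci in the table (mm9) had their own values. Il22, 231001 bases from Ifng on chromosome 10, was at 0.124 and 0.102 FPKM in B10+ cells against 0.0409 and 0 FPKM in B10- cells, or about 4 and 2 fragments against 1 and 0. Il3, 15186 bases from Csf2, was at 0.190 and 0.551 FPKM in B10+ cells against 0.0550 and 0 FPKM in B10- cells. Rad50, the repair gene beside Il13, was at 13.6 and 15.4 FPKM in B10+ cells against 18.4 and 15.1 FPKM in B10- cells. Ckap2l, 2398 bases from Il1a, was at 14.6 and 6.33 FPKM in B10+ cells against 9.47 and 0.343 FPKM in B10- cells. Stard5, 735 bases from Il16, was at 20.8 and 4.05 FPKM in B10+ cells against 22.9 and 3.85 FPKM in B10- cells. Adad1, 9208 bases from Il2, was listed at 0 in all 4 libraries.

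Neutrophil markers summed to 0.286 and 0.0961 FPKM in B10+ cells against 0.154 and 0.172 FPKM in B10- cells, and mast cell and basophil markers to 0.658 and 0.434 (B10+) against 0.178 and 0.176 FPKM (B10-). Markers of macrophages and monocytes summed to 24.4 and 8.85 FPKM in B10+ cells against 13.6 and 5.51 FPKM in B10- cells, of which 14.03 and 0.812 (B10+) against 4.24 and 0.220 FPKM (B10-) came from Ly6c2. Dendritic cell markers summed to 35.6 and 10.2 FPKM in B10+ cells against 42.5 and 6.88 FPKM in B10- cells. Of these sums, Flt3 gave 20.9 and 0.991 FPKM (B10+) and 26.7 and 0.632 FPKM (B10-). Markers of group 2 innate lymphoid cells summed to 5.99 and 7.80 FPKM in B10+ cells against 3.54 and 6.41 FPKM in B10- cells. Il7r gave 1.95 and 5.28 FPKM of the B10+ sums and 2.13 and 6.02 FPKM of the B10- sums. Of these 7 markers, 5 were higher and 1 (Il7r) lower in B10+ cells in both cultures, against 28.5% and 21.7% of all entries above 0.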
